A study of Raphidocelis subcapitata with 493 samples.

Results

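The 100 genes described here are those of the freshwater green alga Raphidocelis subcapitata whose transcript level stood highest, across 22 per- and polyfluoroalkyl substances (PFAS), at the top concentration of each compound. They were chosen by R, the log2 of the mean CPM plus 1 in treated cultures over the mean CPM plus 1 in the DMSO cultures of the same exposure (CPM are counts scaled to an equal library total), from which the median over genes with at least 5 CPM in those DMSO cultures was taken away. Of 13429 genes in the files, 8458 averaged at least 10 CPM over the 33 DMSO libraries, and the members are the 100 of these with the highest median R over the 22 compounds. The highest concentrations and the DMSO libraries therefore chose the members, and every value of R is given as a description with no test. Only the libraries at the 6 lower concentrations were set against each other in tests.

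Exponentially growing algae in constant light were exposed for 24 h in wells of deep plates with 0.33% solvent. The series description allows for DMSO or methanol by compound, the control labels name DMSO only, and the treated labels give no solvent, so R would also hold a solvent difference for any compound given in methanol; the tests between concentrations would not. Each of the 22 compounds was given at 7 nominal concentrations, which were 0.1, 0.3, 1, 3, 10, 32 and 100 µM for all but PFTrDA and 0.005, 0.02, 0.05, 0.2, 0.5, 1 and 5 µM for PFTrDA. Treated groups held 3 libraries, except that PFHpA and 6:1 FTOH at 100 µM had 2. Compounds were run 2 to an exposure, and each of the 11 exposures had 3 libraries of algae in DMSO alone, which serve as the controls of both its compounds. The RNA came from pooled homogenates, and no label states that replicates were grown apart. The p-values therefore reflect variation among libraries, part or all of which could be technical. In a culture sampled in bulk, more cells carrying a transcript and more of it per cell cannot be told apart.

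PFAS are chains of carbon on which fluorine replaces hydrogen, mostly ending in a polar group. The classes here are 2 diols (FC10diol and FC8diol), 2 sulfonamides (FHxSA and N-EtFOSA-M), 2 sulfonates (PFHxS and PFOS), 3 fluorotelomer sulfonates (4:2FTS, 6:2FTS and 8:2FTS), the fluorotelomer alcohol 6:1 FTOH and 7 carboxylic acids (PFPeA, PFHpA, PFOA, PFNA, PFUdA, PFTrDA and PFTeDA). The other 5 compounds (PFTP, PFPB, PF4OPeA, FC8DoD and PFTDoDA) are known here by abbreviation only and were kept as a group of names, not of structures. R. subcapitata is a unicellular alga of standard growth inhibition tests, and transcripts that rise with many unlike chemicals are often looked for in such species among chaperones, detoxifying enzymes and membrane transporters. The files pair no identifier with a gene name or product, so the roles of the members are not given, and they are described by their values, with 4 identifiers named by a rule.

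The 493 libraries held 259836 to 2470296 counts, with a median of 1161621. The shallowest exposures were that of PFTrDA with PFNA, with a median of 382721 counts, and that of PFUdA with PFTeDA, with a median of 658987. In the tests of the second-highest against the lowest concentration, 91 to 99 of the 100 members passed a filter on low counts.

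The median R of the members over the 22 compounds ran from 1.25 for the gene ranked highest to 0.46 for that ranked 100. The members at the end of the list and the genes just outside were close together, with median R of 0.4595 and 0.4579 at ranks 99 and 100 against 0.4563 and 0.4562 for the 2 genes just outside it. Members had R above 0 in 13 to 22 compounds, with a median of 19, and R of at least 1 in 0 to 12 compounds, with a median of 5. Chosen again without replicate 1, 2 or 3, the list shared 60, 71 and 66 of its 100 genes with the list described here, so membership depended in part on which replicates were used. At the median, the members were less abundant than the eligible genes. The members' median level over the DMSO libraries was 28.4 CPM, against 44.2 CPM over all 8458 eligible genes. Of the 100 members, 27 were under 20 CPM, against 19.2% of the eligible genes. Over 100 CPM were 24 of the 100 members and 2059 of the 8458 eligible genes. These DMSO levels also entered R, which chose the members.

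The size of the shared change differed widely between compounds. At 100 µM FC10diol the median R of the members was 2.54, and 74 of 100 members had R of at least 1, as did 20.7% of all eligible genes. With FC8diol the median was 0.91 and 49 members had R of at least 1, against 2.38% of eligible genes. PFTDoDA also had a median of 0.91, with 43 members at R of at least 1, against 5.96% of eligible genes. PFOS followed with a median of 0.80 and 37 members, against 1.09%, and 6:1 FTOH with 0.76 and 36 members, against 1.88%. At the other end were FHxSA with a median of 0.29 and 4:2FTS with 0.31, where 8 members (0.78% of eligible genes) and 4 members (0.414%) had R of at least 1. Of the other acids and sulfonates, PFUdA had 30 such members (2% of eligible genes), PFNA 27 (3.04%), PFOA 25 (0.969%), PFTeDA 21 (2.21%), PFHxS 18 (2.77%), PFHpA 9 (1.06%), PFPeA 8 (1.16%) and PFTrDA 7 (1.8%). FC8DoD had 23 (0.556%), N-EtFOSA-M 22 (1.03%), PFTP 19 (3.68%), 6:2FTS 17 (0.579%), 8:2FTS 16 (0.839%), PF4OPeA 10 (1.83%) and PFPB 6 (0.851%). Since the same values chose the members, nothing is read from the distance between members and background here.

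Grouped by class, the diols were highest in these descriptive values, which rested mainly on FC10diol. The median R of the members was 2.54 with FC10diol and 0.91 with FC8diol, and PFTDoDA, of another group, also had 0.91. The median over members of their class median R was 1.73 with the diols, 0.76 with the fluorotelomer alcohol, 0.74 with the sulfonates, 0.56 with the carboxylic acids, 0.52 with the compounds known by abbreviation, 0.49 with the fluorotelomer sulfonates and 0.45 with the sulfonamides. Of the 100 members, 66 had their highest class median with the diols, 11 with the alcohol, 7 with the sulfonates, 7 with the fluorotelomer sulfonates, 4 with the compounds known by abbreviation, 3 with the sulfonamides and 2 with the acids. These class medians were taken over unequal numbers of compounds, from 1 (the alcohol) to 7 (the acids). The part of class size in these values was not tested. Within the 7 acids, 60 members had R of at least 1 with some acid and 0 with all 7, and 30 were above 0 with all 7. Compound by compound, 65 members were highest with FC10diol, 8 with PFTDoDA, 4 with PFTP and 3 each with FC8diol, N-EtFOSA-M and PFNA. At 100 µM FC10diol, 20.7% of eligible genes had R of at least 1 and 19.8% had R of -1 or less. The counts of highest values by class and by compound were not made over all eligible genes. Nothing is therefore read from them about members beside other genes.

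**Figure D1:**
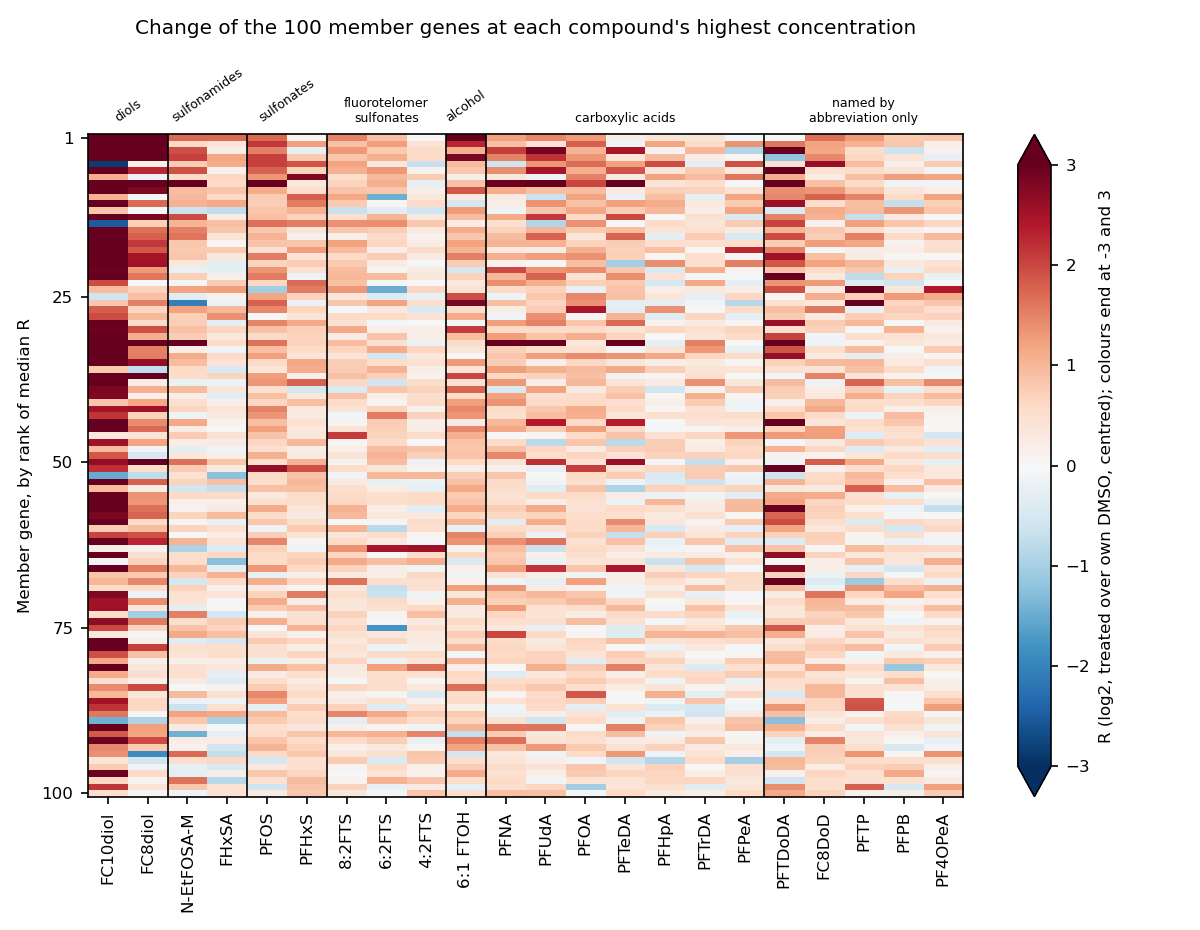
R of each of the 100 members (rows, by rank of median R) at the highest concentration of each compound (columns, by class); red is above and blue below the compound's own DMSO libraries on a log2 scale that ends at -3 and 3. The FC10diol column is the darkest, with a median of 2.54, and it also holds the bluest cells, among them the genes ranked 5 and 14.

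Some members were low with a compound. With FC10diol, the gene ranked 5 had R of -2.85 and the gene ranked 14 had R of -2.49, although they had R of at least 1 with 10 and with 8 compounds. The gene ranked 26 ran from -2.06 with N-EtFOSA-M to 5.08 with PFTP, but it averaged 12.5 CPM in DMSO and passed the filter on low counts with 9 compounds. These 3 genes were picked out after their values were seen.

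The members also made up a larger share of all counts at the highest concentrations, which is another view of the values that chose them. They took 6.04% ± 0.26 of counts in 100 µM FC10diol libraries and 0.75% ± 0.07 in the DMSO libraries of that exposure (SD, n = 3 each). With FC8diol the share was 2.59% ± 0.06, against 0.75% ± 0.07 in the same DMSO libraries. With 4:2FTS it was 1.13% ± 0.02 in treated libraries, against 0.95% ± 0.07 in DMSO libraries.

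Across the concentration series, the members' median R grew with the dose in the compounds where it ended high. With FC10diol it was 0.20, 0.17, 0.26, 0.50, 0.92, 1.37 and 2.54 at 0.1, 0.3, 1, 3, 10, 32 and 100 µM. The number of members at R of at least 1 was 6, 4, 4, 27, 48, 57 and 74 at the same concentrations, where 0.899%, 0.745%, 0.745%, 1.61%, 3.77%, 5.79% and 20.7% of eligible genes were. Counting for each member the lowest concentration from which R stayed at 1 or more up to the highest, 22, 17, 12 and 21 members began at 3, 10, 32 and 100 µM FC10diol, so most of the members were reached in steps over the upper 4 concentrations. FC8diol reached medians of 0.26, 0.62 and 0.91 at 10, 32 and 100 µM, where 21 of its members began at 32 µM and 22 at 100 µM. PFOS had medians of 0.13, 0.44 and 0.80 at those concentrations, and 30 of its 37 members began at 100 µM. PFTDoDA differed in shape, with 20, 26, 35 and 43 members at R of at least 1 at 3, 10, 32 and 100 µM, against 1.19%, 1.54%, 2.52% and 5.96% of eligible genes.

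Small values of R were present at the lowest concentration in several compounds. At 0.1 µM the median R was 0.27 with 6:1 FTOH and PFUdA, 0.25 with PFPeA, 0.24 with PFNA and 6:2FTS, 0.22 with PFTDoDA and PFTP, and 0.21 with PFOA and PFHxS, while it was near 0 with PFOS and PFHpA. These comparisons share the DMSO libraries that chose the members. PFPeA had medians of 0.25, 0.16 and 0.34 at 0.1, 32 and 100 µM.

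**Figure D2:**
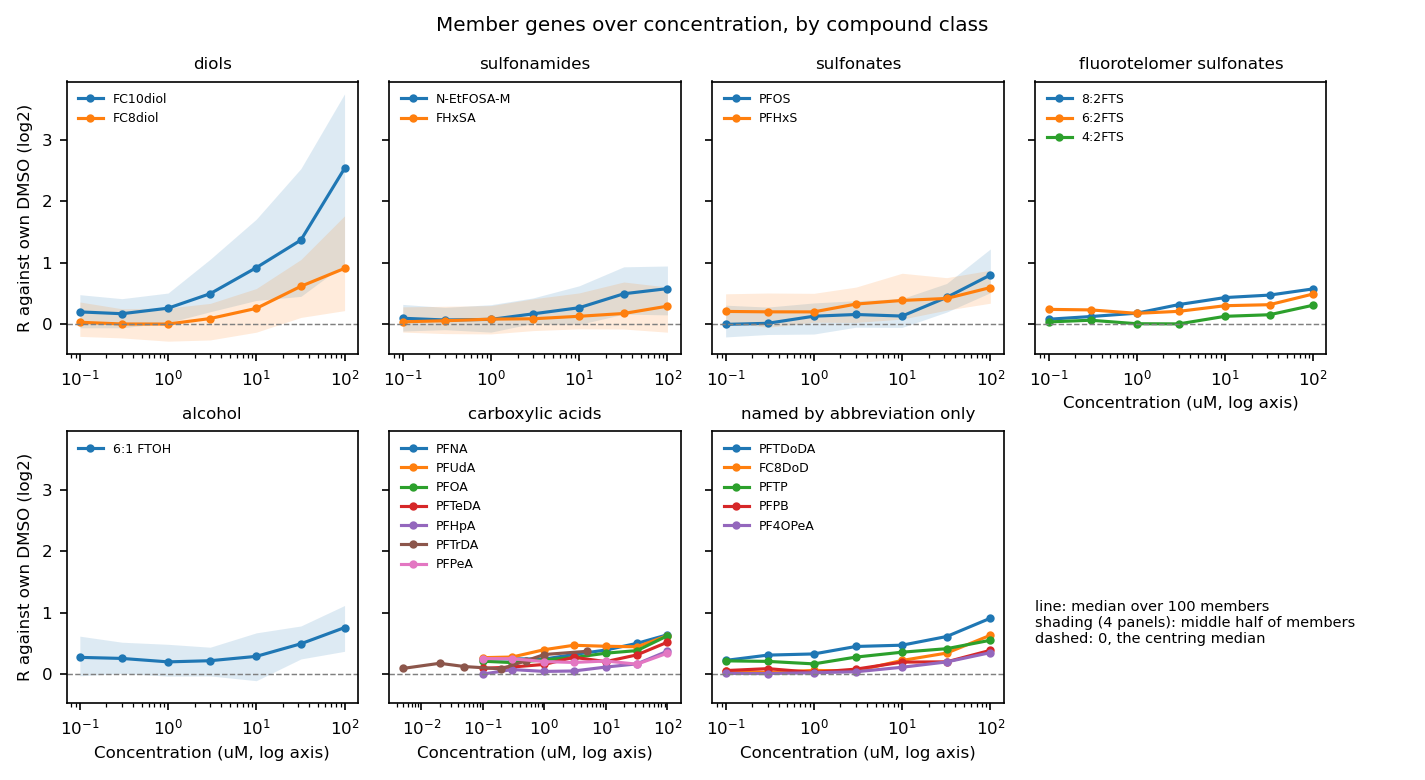
Median R over the 100 members (points and lines; log2, against own DMSO) at each nominal concentration in µM on a log axis, in panels by compound class; shading in the panels with up to 2 compounds spans the interquartile range of the members. FC10diol climbs to 2.54 and FC8diol to 0.91, while the lines of the 7 acids end between 0.34 and 0.64.

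The level of the members differed between the untreated cultures of the exposures. Over the 11 sets of DMSO libraries, the range of a member's mean level had a median of 1.94 on the log2 scale, against 1.34 for all eligible genes, while the SD within an exposure had a median of 0.456, against 0.354. Members were lowest in the DMSO libraries of the FC10diol and FC8diol exposure, at a median of 0.37 log2 units under their mean over exposures, and 28 of 100 members had their lowest control level there. They were highest in the DMSO libraries of the PFTrDA and PFNA exposure, at a median of 0.39 above. Over all eligible genes the median deviation was -0.02 in the FC10diol and FC8diol controls and 0.14 in the PFTrDA and PFNA controls. The count of genes lowest in an exposure was not made over all eligible genes. The part of these control levels in R was not tested. The contrasts below use no DMSO library as a reference.

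**Figure D3:**
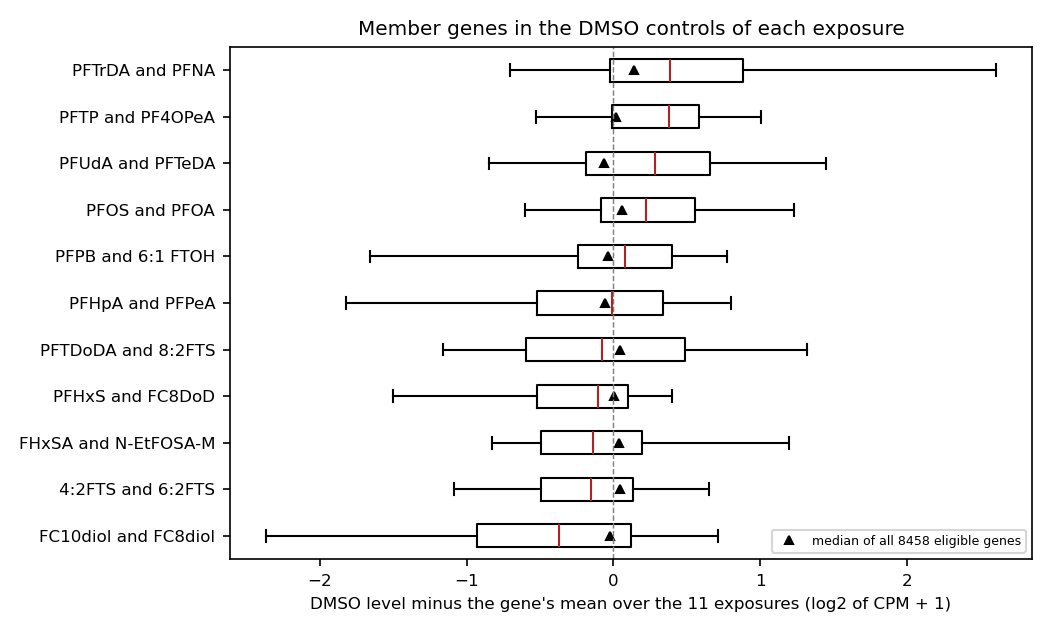
Deviation of each member's DMSO level from its own mean over the 11 exposures (log2 of CPM + 1), by exposure; boxes span the interquartile range of the members, red lines the median, whiskers the 5th to 95th percentile, and triangles show the median of all 8458 eligible genes. The FC10diol and FC8diol box lies lowest, with a median of -0.37, and that of PFTrDA and PFNA highest, at 0.39.

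Whether members rose with concentration was tested between libraries that had not chosen them, at the second-highest against the lowest concentration of each compound (32 against 0.1 µM, and 1 against 0.005 µM PFTrDA), by edgeR's quasi-likelihood test with Benjamini-Hochberg adjustment over all genes of a fit. A call needed an adjusted p below 0.05. Over the 22 compounds, members rose in 229 of 2126 tests (10.8%) and fell in 15 (0.706%). Over all genes, 1.08% of 201937 tests were rises and 1% were falls. Without FC10diol, 176 of the 229 member rises and 1373 of the 2181 rises over all genes were left. Without replicate 2, members rose in 130 tests and fell in 5, against 195 and 183 rises without replicates 1 and 3.

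FC10diol moved the most members. At 32 against 0.1 µM, 53 of 94 tested members rose and 2 fell, against rises in 8.86% and falls in 8.57% of all genes tested. The rises with FC10diol had a median log2 fold change of 2.38 and ran from 0.84 to 5.83. With FC8diol, 25 of 91 tested members rose, against 1.15% of all genes, with a median of 1.22 among the rises. Without any scaling factor, the median of all genes moved by -0.12 with FC10diol, rises made up 34.6% of all its calls instead of 50.8%, and the member count stayed 53.

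The other strong responders were spread over several classes. PFTDoDA raised 34 of 99 tested members, against 3.81% of all genes, and 2 members fell (2.16% of all genes). N-EtFOSA-M raised 20 of 99, against 0.739%, and 1 fell (0.591%). PFUdA raised 19 of 98, against 2.05%, and 4 fell (1.83%). FHxSA raised 14 of 99, against 1.34%, and 2 fell (2.16%). 8:2FTS raised 14 of 97, against 0.325%, and 6:1 FTOH raised 12 of 97, against 0.632%, with 2 falls (0.705%). PFOS raised 10 of 99, against 0.14%: in all, 13 genes rose with PFOS, so members were 76.9% of its rises. PFTP was the reverse of PFOS in this respect. It raised 7 of 99 members while 3.09% of all genes rose, and members were 2.41% of its rises. Samples with the same replicate number deviated together with PFTP, and with replicate as a block 13 members rose with it. The share of all genes that rose in that fit is not given here.

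Several of these counts rested on few libraries. Leaving out each replicate in turn, the count of member rises was 0 to 4 with PFOS, 1 to 10 with 6:1 FTOH, 4 to 13 with 8:2FTS, 9 to 18 with N-EtFOSA-M, 10 to 18 with PFUdA, 9 to 13 with FHxSA and 2 to 6 with PFTP. It was 46 to 51 with FC10diol, 19 to 24 with FC8diol and 24 to 30 with PFTDoDA.

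In the remaining compounds few members rose or none was called. PFHpA raised 5 of 96 members (0.364% of all genes) and PFTeDA 5 of 96 (0.477%). 6:2FTS raised 3 of 97 (0.0764%) and PFPB 3 of 97 (0.416%), and 1 member fell with PFPB (1.74%). PFNA raised 2 of 92 (0.0258%), and 1 fell (0.0645%). PFTrDA, 4:2FTS and FC8DoD raised 1 member each, against 0.0121%, 0.0759% and 0.0325% of all genes. The count for FC8DoD depended on the fit, with 5 member rises by DESeq2 and 14 with a replicate block. The shares of all genes that rose in those fits are not given here, so these counts are not read against a background. Leaving out each replicate gave 0 to 6 rises with PFHpA, 0 with 6:2FTS and 0 to 2 with PFPB, PFNA and 4:2FTS.

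With PFHxS, PF4OPeA, PFOA and PFPeA, no member was called as a rise by edgeR or by DESeq2, nor was any gene by edgeR (0% of genes tested). Other settings of edgeR called a few, with 3 member rises for PFOA without the filter on low counts, 2 for PFOA with the 6 lower concentrations alone in the fit and 2 for PF4OPeA with a replicate block. The shares of all genes called under those settings are not given here. At an unadjusted p under 0.05, 10 of 97, 8 of 99, 16 of 99 and 3 of 94 tested members were higher at 32 µM with these 4 compounds. Over all genes tested, 2.2%, 3.59%, 2.96% and 3.07% were higher at that threshold. The 95% interval of a member's log2 fold change extended at the median by 0.57 to either side with PFHxS, by 0.59 with PF4OPeA and with PFOA, and by 0.66 with PFPeA. The median log2 fold change of the members was 0.19 with PFHxS, 0.20 with PF4OPeA, 0.19 with PFOA and -0.13 with PFPeA, beside medians from -0.01 to 0.01 over all genes.

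**Figure D4:**
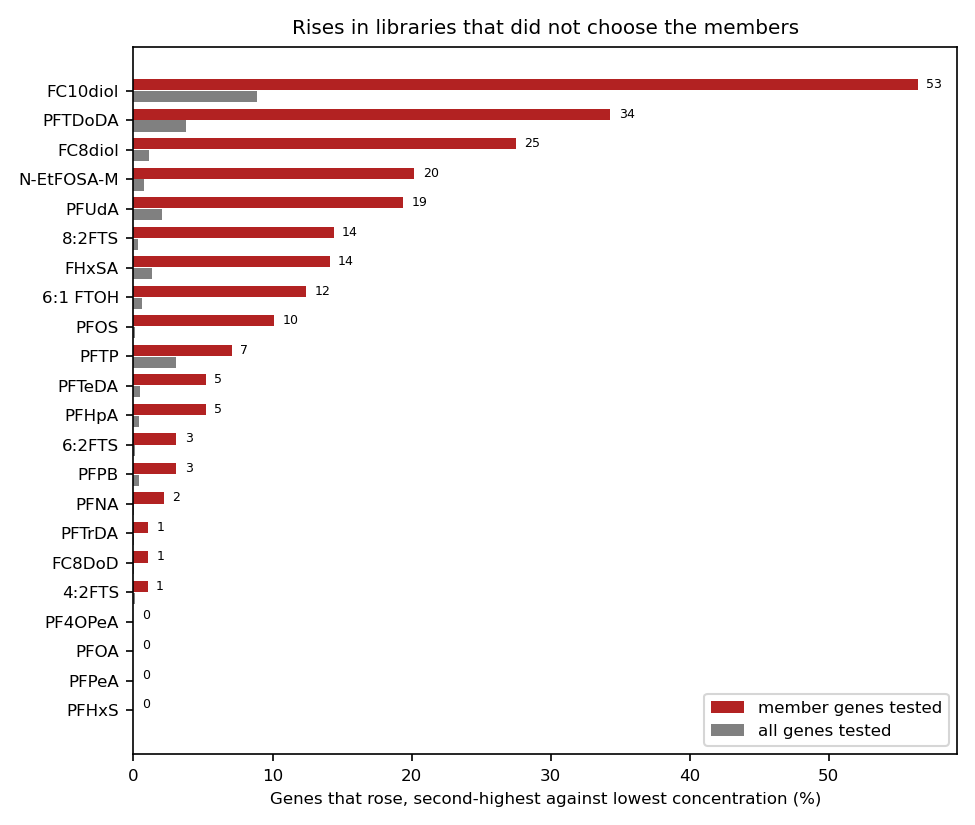
Share of tested genes that rose at the second-highest against the lowest concentration (percent, horizontal axis) for members (red, with the count beside the bar) and for all genes (grey), by compound. FC10diol has the longest red bar, at 53 members, and 4 compounds have none.

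By class, 42.2% of member tests with the diols were rises, against 5.03% of all gene tests in that class. The share was 17.2% with the sulfonamides (all genes 1.04%), 12.4% with the alcohol (0.632%) and 9.18% with the compounds known by abbreviation (1.47%). It was 6.19% with the fluorotelomer sulfonates (0.159%), 5.1% with the sulfonates (0.0694%) and 4.78% with the acids (0.421%). The class order in this test differed from that of R, in which the sulfonamides were lowest. Within classes the compounds were unlike each other. FC10diol gave 53 of the 78 member rises of the diols. All 10 member rises of the sulfonates came from PFOS, 14 of 18 rises of the fluorotelomer sulfonates from 8:2FTS, 19 of 32 of the acids from PFUdA and 34 of 45 of the compounds known by abbreviation from PFTDoDA.

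The trend over the 6 lower concentrations, which used neither the DMSO nor the highest-concentration libraries, called 261 rises (12.4%) and 23 falls (1.09%) in 2102 member tests, against 1.76% rises and 1.8% falls over all genes. FC10diol had 55 rising members (12.9% of all genes rose), PFTDoDA 34 (4.38%), FC8diol 31 (4.1%), 8:2FTS 23 (0.711%), PFUdA 22 (3.29%), N-EtFOSA-M 21 (1.14%), FHxSA 15 (2.58%), PFTP 11 (4.4%), 6:1 FTOH 10 (0.92%), PFOS 8 (0.152%) and FC8DoD 7 (0.164%). PFPB also had 7 rises (1.93%), 6:2FTS, PFNA and PFTeDA had 4 each (0.42%, 0.0666% and 0.116%), 4:2FTS had 3 (1.04%), and PFTrDA and PFHpA had 1 each (0.0124% and 0.0425%). With PFHxS, PF4OPeA, PFOA and PFPeA edgeR called no member rise in the trend (0%, 0.084%, 0% and 0.0429% of all genes). At an unadjusted p under 0.05, 16 of 97, 17 of 99, 23 of 99 and 7 of 94 tested members had a positive slope. Over all genes tested, 3.42%, 6.75%, 2.97% and 5.05% did at that threshold. No other tool was run on the trend. PFUdA had 7 falling members beside its 22 rises, and 3.01% of all genes fell with it. FC10diol, PFTDoDA and PFPB had 3 falling members each (12.1%, 2.93% and 3.84% of all genes), FHxSA had 2 (3.33%), and FC8diol, 4:2FTS, N-EtFOSA-M, PFNA and 6:1 FTOH had 1 each (3.72%, 3.49%, 1.13%, 0.0666% and 1.54%). In all, 71 members rose with at least 1 compound in both tests, 4 in the trend alone, and 25 in neither. Without replicate 2, the trend called 170 rises.

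Recurrence was uneven among the members. In the contrast, 71 of 100 members rose with at least 1 compound, 48 with at least 2 and 16 with at least 5, and the most was 10 compounds. Of the 10269 genes tested with any compound, 15.4% rose with at least 1 and 3.47% with at least 2. Over all genes, 25 (0.243%) rose with at least 5 compounds, and the 16 members were among them. Without replicate 2, 8 members rose with at least 5 compounds, and without replicates 1 and 3, 14 and 11 did. Counted over classes, 46 members rose in at least 2, 18 in at least 4 and 4 in all 7, where the compounds known by abbreviation count as a class. The count over classes was not made for all genes, so nothing is read from it about members beside other genes.

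The 16 recurrent members were mostly abundant in DMSO. Their DMSO levels had a median of 259 CPM and 10 were over 100 CPM. The 55 members that rose with 1 to 4 compounds had a median of 33.1 CPM, and the 29 that rose with none had a median of 22.9 CPM, with 1 over 100 CPM. A low count gives less power to call a change, and its part in the recurrence was not tested. All 16 rose with FC10diol, 15 with FC8diol, 11 each with PFTDoDA, PFUdA and 6:1 FTOH, 10 each with 8:2FTS and N-EtFOSA-M, 9 with FHxSA and 8 with PFOS. Each of the 16 had a positive log2 fold change in 17 to 22 compounds.

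In the values that chose them, the 29 members that rose with no compound were near those with 1 to 4 compounds. They were below the recurrent ones. Their median R was 0.55, against 0.54 for those with 1 to 4 compounds and 0.79 for the recurrent ones. Between the second-highest and the lowest concentration their log2 fold change was positive in 6 to 17 compounds, with a median of 13. A member was counted only in compounds where it passed the filter on low counts. The gene with 6, ranked 26, was tested with 9 compounds. Of the 29, 4 had a median log2 fold change below 0.

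Between compounds of different exposures, the lists of risen members overlapped to unequal degrees. All 12 members that rose with 6:1 FTOH also rose with FC10diol, where they were 22.6% of its 53. Over all genes, 26 were shared, or 42.6% of the rises with 6:1 FTOH and 3.22% of those with FC10diol. PFTDoDA shared 29 members with FC10diol, which were 85.3% of its own rises and 54.7% of those of FC10diol, and 2 members moved in opposite directions with these compounds. Over all genes these shares were 41.4% of the PFTDoDA and 18.6% of the FC10diol rises, and 41 genes moved oppositely. PFUdA shared 18 with FC10diol (94.7% of its own rises and 34% of those of FC10diol, against 38.7% and 8.66% over all genes). PFTDoDA and N-EtFOSA-M shared 8 (23.5% of the PFTDoDA list and 40% of the N-EtFOSA-M list), and 3 members moved oppositely; over all genes the shares were 4.14% and 21.4%, and 13 genes moved oppositely. FHxSA and 8:2FTS shared 9 of 14 each, or 64.3%, against 12.6% and 53.3% of their rises over all genes.

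The 2 compounds of an exposure were contrasted directly at 32 µM (1 µM for PFTrDA against PFNA) in 11 pairs, by the same test. FC10diol and FC8diol, the diol with the longer and that with the shorter chain, differed most. Of 94 tested members, 44 differed, 43 higher and 1 lower with FC10diol, against 21.3% of all genes. The higher ones had a median log2 difference of 1.89 and a largest of 4.19. In the same libraries, the members had a median level of 87.2 CPM with FC10diol and 33.1 CPM with FC8diol.

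PFTDoDA and 8:2FTS differed in 29 of 99 members (3.75% of all genes), 20 higher with PFTDoDA by a median of 1.44 and 9 lower. FHxSA and N-EtFOSA-M, both sulfonamides, differed in 20 of 99 (2.93%), 4 higher with FHxSA and 16 lower, with a median log2 difference of -1.57 among the 16. PFPB and 6:1 FTOH differed in 9 of 97 members (0.262%), each lower with PFPB. PFUdA, the shorter of 2 long acids, was above PFTeDA in 7 of 98 members and below in 1 (0.431%). PFHxS and FC8DoD differed in 2 of 99 members (0.0834%), and PFTP and PF4OPeA in 1 of 99 (0.3%). With replicate as a block, PFTP and PF4OPeA differed in 7 members and PFHxS and FC8DoD in 7, and the shares of all genes are not given for that fit.

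With the other 4 pairs, edgeR called no member, and no other tool was run on the pairs. At an unadjusted p under 0.05, 16 of 100 members differed between PFOS and PFOA, beside 840 of all 9522 genes tested. These compounds carry a sulfonate and a carboxylate group, and 0.0315% of all genes were called after adjustment. For this pair the median difference was 0.01 and the 95% interval of a member reached 0.56 to either side at the median. PFHpA and PFPeA, acids of unequal chain length, had 4 such members of 97, beside 320 of all 9858 genes. Their interval reached 0.71 (0% of all genes called after adjustment). The fluorotelomer sulfonates 4:2FTS and 6:2FTS had 21 members of 97, beside 768 of all 9391 genes, and an interval reaching 0.69 (0.0852% called after adjustment). PFTrDA and PFNA had 6 members of 95 at 1 µM, beside 394 of all 8319 genes, and an interval reaching 0.68 (0.0361% called after adjustment). When p-values were adjusted over the 11 pairs and all genes together, the member counts were 40 for the diols, 28 for PFTDoDA and 8:2FTS, 19 for the sulfonamides, 13 for PFUdA and PFTeDA, 12 for PFPB and 6:1 FTOH, 6 for PFHxS and FC8DoD, 6 for 4:2FTS and 6:2FTS, and 1 each for PFTP with PF4OPeA and PFOS with PFOA.

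The direct differences at 32 µM include any difference already present at 0.1 µM. Testing the difference of the changes between these concentrations left 28 members for the diols, 13 for PFTDoDA and 8:2FTS, 11 for the sulfonamides, 2 for PFPB and 6:1 FTOH and 1 for PFUdA and PFTeDA. The share of all genes called is not given here for this test or for the adjustment over the 11 pairs. Those counts are therefore not read against a background. Without replicate 1, 2 or 3, the counts of direct differences ran from 36 to 46 for the diols, 21 to 29 for PFTDoDA and 8:2FTS, 9 to 16 for the sulfonamides, 2 to 9 for PFPB and 6:1 FTOH, and 0 to 6 for PFUdA and PFTeDA.

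The 2 members with the most rises and the 2 with the most falls in the contrast are given by identifier. Rsub_09510, ranked 2 with a median R of 1.10, rose with 10 compounds, as did 2 other members. At 32 µM FC10diol it stood at 1564, 1608 and 1605 CPM, against 149, 121 and 164 CPM at 0.1 µM. The groups were far apart (log2 fold change 3.58, SE 0.13, edgeR adjusted p = 1.7e-23). Over the whole FC10diol series it averaged 116 CPM in DMSO and 145, 171, 179, 363, 837, 1593 and 5445 CPM at 0.1, 0.3, 1, 3, 10, 32 and 100 µM.

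The rise of Rsub_09510 was smaller with the other 9 compounds. With FC8diol it had 409, 373 and 528 CPM at 32 µM, against 145, 123 and 149 CPM at 0.1 µM (log2 fold change 1.68, SE 0.16, edgeR adjusted p = 2.0e-10). FC10diol was above FC8diol at 32 µM by 1.89 on the log2 scale (edgeR adjusted p = 5.9e-16). With 8:2FTS it had 891, 921 and 795 CPM at 32 µM, against 433, 488 and 476 CPM at 0.1 µM, and the log2 fold change was 0.90 (SE 0.10). With PFUdA no change was called (log2 fold change 0.01, SE 0.14), and the 32 µM libraries had 1874, 1532 and 1392 CPM, against 1821, 1637 and 1480 CPM at 0.1 µM. The groups overlapped there. The control level of that exposure was 1200 CPM, against 116 CPM in the FC10diol exposure. With PFTrDA, whose control level was 1127 CPM, Rsub_09510 rose from a mean of 960 to 1550 CPM (log2 fold change 0.69, SE 0.11). The part of the control level in these changes was not tested. The calls of Rsub_09510 with 6:1 FTOH, N-EtFOSA-M, PFOS and PFPB were lost in 2 to 4 of 11 alternatives, with adjusted p up to 0.560, 0.403, 0.191 and 0.490, and leaving out replicate 2 ended all 4.

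Rsub_11815, ranked 37 with a median R of 0.58, also rose with 10 compounds. At 32 µM FC10diol it had 3127, 2787 and 2809 CPM, against 475, 374 and 486 CPM at 0.1 µM (log2 fold change 2.83, SE 0.13). Its FC10diol series levelled off, with averages of 1079, 2211, 2907 and 3258 CPM at 3, 10, 32 and 100 µM. With FC8diol at 32 µM it had 2050, 1525 and 1707 CPM, against 460, 371 and 433 CPM at 0.1 µM (log2 fold change 2.10, SE 0.15). With 6:1 FTOH it had 1576, 1762 and 1687 CPM, against 521, 595 and 591 CPM (log2 fold change 1.53, SE 0.14), and with PFPB, the other compound of that exposure, it was lower by 1.26 log2 units at 32 µM (edgeR adjusted p = 2.7e-10). Its calls with 6:2FTS, PFUdA, N-EtFOSA-M, PFOS and FC8DoD were lost in 6, 6, 5, 3 and 1 of 11 alternatives, with adjusted p up to 0.352, 0.285, 0.744, 0.411 and 0.164, and leaving out replicate 2 ended each of them.

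The direction of Rsub_11815 differed within the exposure of PFTDoDA and 8:2FTS. With 8:2FTS it rose to 1212, 1436 and 1345 CPM at 32 µM, against 788, 770 and 772 CPM at 0.1 µM (log2 fold change 0.78, SE 0.10). With PFTDoDA it fell to 498, 574 and 575 CPM at 32 µM, against 677, 644 and 767 CPM at 0.1 µM (log2 fold change -0.33, SE 0.10, edgeR adjusted p = 0.031). The groups did not overlap in either compound, and at 32 µM PFTDoDA was below 8:2FTS by 1.31 log2 units (edgeR adjusted p = 1.1e-18). The fall with PFTDoDA was lost when any replicate was left out, with adjusted p up to 0.212. At 100 µM PFTDoDA the level was 790, 714 and 682 CPM, near the 0.1 µM values.

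Rsub_02329, ranked 68 with a median R of 0.50, rose with 4 compounds and fell with 3. With PFTDoDA at 32 µM it had 232, 188 and 179 CPM, against 72.1, 52.3 and 63.2 CPM at 0.1 µM (log2 fold change 1.69, SE 0.17). With 8:2FTS it had 128, 108 and 67.8 CPM, against 41.8, 33.02 and 30.3 CPM (log2 fold change 1.53, SE 0.26). With PFUdA it fell to 478, 670 and 599 CPM at 32 µM, against 1050, 1368 and 1242 CPM at 0.1 µM (log2 fold change -1.005, SE 0.17, edgeR adjusted p = 0.00017). Its level in DMSO ran from 7.18 CPM in the FC10diol and FC8diol exposure to 1211 CPM in the PFTrDA and PFNA exposure. At 32 µM FC10diol it had 3.08, 8.00 and 10.2 CPM, against 2.58, 13.4 and 7.52 CPM at 0.1 µM, and the groups overlapped. The falls with PFNA (-0.59) and 6:1 FTOH (-0.53) were lost without replicate 1 or 2, with adjusted p up to 0.562 and 0.701 over all alternatives. The rises with 8:2FTS, FHxSA and PFOS were lost without replicate 2, with adjusted p up to 0.652, 0.278 and 0.331, and those with FHxSA and PFOS also without another replicate.

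Rsub_11009, ranked 89 with a median R of 0.47, moved in opposite directions with the 2 sulfonamides. With N-EtFOSA-M at 32 µM it had 516, 467 and 555 CPM, against 231, 229 and 315 CPM at 0.1 µM (log2 fold change 0.99, SE 0.15, edgeR adjusted p = 3.6e-05). With FHxSA at 32 µM it had 120, 73.1 and 110 CPM, against 185, 145 and 225 CPM at 0.1 µM (log2 fold change -0.88, SE 0.17, edgeR adjusted p = 0.0015). The groups were separate in both, and FHxSA was below N-EtFOSA-M by 2.34 log2 units at 32 µM (edgeR adjusted p = 5.7e-13). With PFTDoDA it fell to 278, 290 and 240 CPM, against 462, 421 and 357 CPM (log2 fold change -0.60, SE 0.14), a call that was lost without replicate 2 (adjusted p = 0.107).

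**Figure D5:**
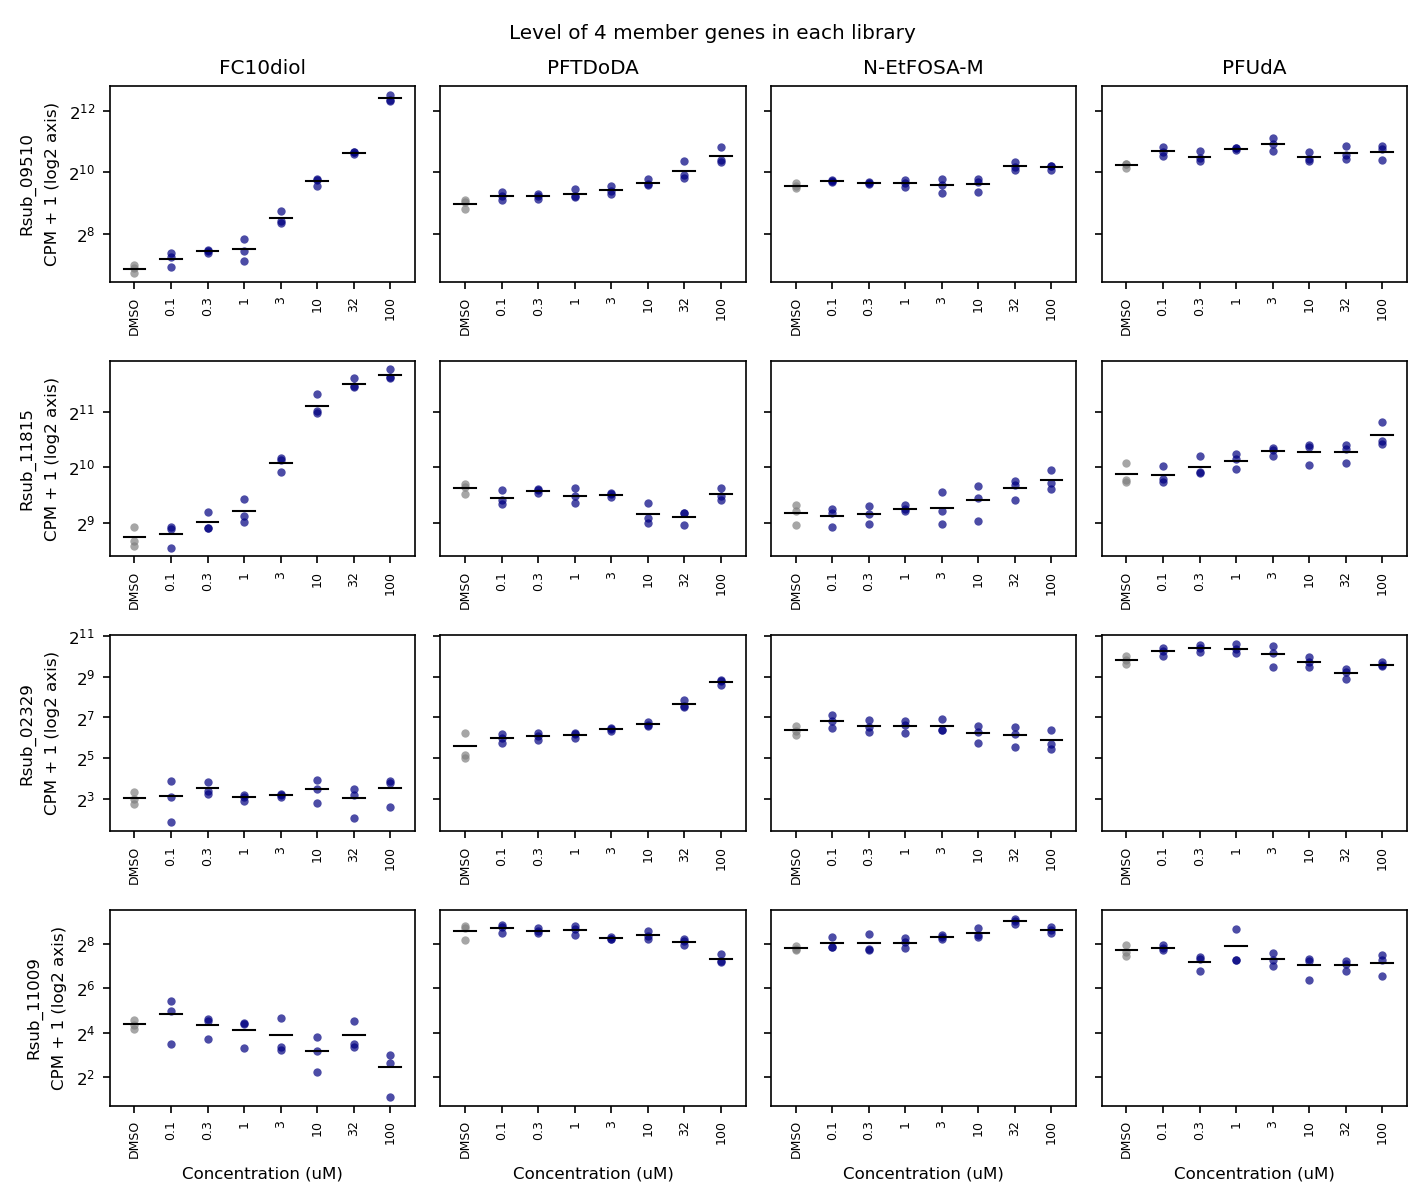
CPM + 1 on a log2 axis of the 4 named members (rows) in each library of 4 compounds (columns), with DMSO in grey at the left and the nominal concentrations in µM from low to high; bars mark the mean. With FC10diol, Rsub_09510 and Rsub_11815 climb from 3 µM on, while Rsub_02329 stays near 10 CPM; with PFTDoDA, Rsub_02329 climbs and Rsub_11009 declines.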

How the data were processed

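Per the labels, libraries were made with a kit that reads the 3' end of transcripts and adds molecular identifiers. The deposited values are whole-number counts per gene in 22 tables, and the submitters' processing notes name featureCounts 2.0.6, SAMtools 1.15.1, STAR 2.7.10a and fastp 0.23.2. No build, annotation or collapsing of molecular identifiers is named there (not given in the sources used here), so counting error may exceed what the totals imply, and overlapping or nearly identical genes can share reads. Library totals were 259836 to 2470296 counts. The 33 control libraries appear alike in the tables of both compounds of an exposure and were used once. The solvent of the controls is labelled DMSO. Not analysed here were the plate for phenotypes, the copper sulfate controls and the lowest dilution planned.

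Groups came from the labels. The members and all comparisons were chosen with earlier results of these data known. CPM is the count scaled to an equal total in each library, and R used a pseudocount of 1 CPM. Counts were tested by edgeR 4.0.16 in R 4.3.3 (TMM factors, robust glmQLFit and glmQLFTest, low counts filtered by filterByExpr), with Benjamini-Hochberg adjustment over all genes of a fit and calls at an adjusted p under 0.05. For the contrast of the second-highest with the lowest concentration, all libraries of a compound and its controls shared an estimate of the spread. The trend used the rank of the 6 lower concentrations. Pairs of compounds were contrasted in a fit of their exposure. The scripts were tested on simulated data. Alternatives were DESeq2 1.42.0, other scaling, no filter, a replicate block, another lowest concentration, and leaving out the 10 µM libraries or each replicate number.

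The identifiers named are the 2 members with the most compounds called as a rise and the 2 with the most called as a fall, with ties settled by the mean log2 fold change; no gene list could be matched, and no sequence is held in the files. In 491 of 491 pairs, replicates were further apart than counting noise (chi-square over its degrees of freedom 1.73 to 17.6). Same-numbered libraries at 32 and at the lowest concentration correlated by -0.073 to 0.274 in their deviations (median 0.068), with every correlation over 0.1 in 2 of 22 compounds, PFTP and PFPeA; the block is reported beside the result where it moved a count there.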

Additional observations from a re-analysis of the deposited data

Results flagged for a closer look

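In 7 of the 11 exposures the 2 compounds differed in at least 1 member gene by a direct edgeR quasi-likelihood test at 32 µM, after Benjamini-Hochberg adjustment. FC10diol and FC8diol differed in 44 members, 43 of them higher with FC10diol, against 21.3% of all genes. PFTDoDA and 8:2FTS differed in 29 members, 20 of them higher with PFTDoDA (3.75% of all genes). FHxSA and N-EtFOSA-M differed in 20, of which 16 were lower with FHxSA (2.93%). PFPB and 6:1 FTOH differed in 9 (0.262%), PFUdA and PFTeDA in 8 (0.431%), PFHxS and FC8DoD in 2 (0.0834%), and PFTP and PF4OPeA in 1 (0.3%), which became 7 with replicate as a block. When the difference present at the lowest concentration was taken out, 28 members still differed for the diols, 13 for PFTDoDA and 8:2FTS, 11 for the sulfonamides, 2 for PFPB and 6:1 FTOH, 1 for PFUdA and PFTeDA, and 0 for the last 2 pairs. The share of all genes called in that test is not given here. In the exposure of PFUdA with PFTeDA, the libraries were also among the shallowest, with 259836 to 934169 counts, and the part of depth in its count of 8 was not tested.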

How the results depend on the processing

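Under the alternatives tried, 351 of 432 counts stayed within 1.5 times the reported one. Of 341 alternative values of the named genes' calls, 289 stayed calls, 52 did not and 0 reversed. The cause of the changes was not tested, and the shares of all genes called under the alternatives are not given here. DESeq2 gave 5 rises with FC8DoD in place of 1. With no filter, members fell in 23 tests in place of 15 and rose with 2 (4:2FTS) and 3 (PFOA) members; 1 member differed between 4:2FTS and 6:2FTS and 13 between PFUdA and PFTeDA. Against the second-lowest concentration, 6 members rose with PFOS, 8 with 8:2FTS, 2 with FC8DoD and 0 with PFHpA, 6:2FTS, PFNA and PFPB. With the 6 lower concentrations alone in the fit, an alternative chosen after seeing the data, 2 members rose with PFTrDA, 2 with PFOA and 0 with 6:2FTS; without the 2 shallowest exposures, also added later, 202 rises were left of 229. Without the 10 µM libraries the trend had 15 falls in place of 23. Testing the difference of the changes from the lowest concentration gave 28 (diols), 11 (sulfonamides), 13 (PFTDoDA and 8:2FTS), 2 (PFPB and 6:1 FTOH), 1 (PFUdA and PFTeDA), 1 (PFOS and PFOA), 0 (PFTP and PF4OPeA) and 0 (PFHxS and FC8DoD). Chosen again with all 33 DMSO libraries as the reference, the list kept 64 members, and with a floor of 5 or 20 CPM in DMSO 68 and 73.

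Replicate numbers paired the libraries in few compounds. With a replicate block, members rose in 285 tests and fell in 23, and rises numbered 13 with PFTP, 14 with FC8DoD, 3 with PFTrDA, 2 with 4:2FTS, 2 with PF4OPeA, 5 with 6:2FTS and 6 with PFPB; differences numbered 5 for 4:2FTS and 6:2FTS, 7 for PFTP and PF4OPeA, 7 for PFHxS and FC8DoD and 14 for PFPB and 6:1 FTOH. The trend called 318 rises with the block.

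Leaving out replicate 1, 2 or 3 throughout gave 130 to 195 rises, 5 to 13 falls and 8 to 14 members with at least 5 rises in the contrast, and 170 to 218, 10 to 23 and 12 to 16 in the trend. Rises ran from 0 to 4 with PFOS, 1 to 2 with PFTrDA, 0 to 6 with PFHpA, 2 to 6 with PFTP, 0 to 2 with 4:2FTS, 9 to 13 with FHxSA, 0 to 1 with FC8DoD, 0 to 0 with 6:2FTS, 9 to 18 with N-EtFOSA-M, 0 to 2 with PFNA, 10 to 18 with PFUdA, 0 to 2 with PFPB, 1 to 10 with 6:1 FTOH and 4 to 13 with 8:2FTS; in the trend they ran from 9 to 17 with 8:2FTS and 9 to 18 with N-EtFOSA-M. Differences ran from 0 to 2 for 4:2FTS and 6:2FTS, 9 to 16 for the sulfonamides, 1 to 3 for PFTP and PF4OPeA, 0 to 2 for PFHxS and FC8DoD, 2 to 9 for PFPB and 6:1 FTOH and 0 to 6 for PFUdA and PFTeDA. The list kept 60 to 71 members.

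Without scaling factors, rises were 50.3% of all calls with FC8diol in place of 61.2%, 41.2% with PFUdA in place of 52.8%, 42.9% with PFPB in place of 19.3%, 53.6% with PFHpA in place of 41.7% and 35.9% with PFTeDA in place of 54.8%.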

Other observations

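Among the 100 members, 10 genes formed 5 pairs with consecutive identifier numbers; whether these genes are neighbours was not analysed here.

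At 10 µM PFHpA, 11 members had R of -1 or less, as did 4.98% of all eligible genes, although the median over members was 0.11 at that concentration and 0.37 at 100 µM.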
